A study of Mus musculus with 6 samples.

Results

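The 10 genes described here code for small calcium-binding S100 proteins (S100a4, S100a6, S100a8, S100a9, S100a10 and S100a11), annexins (Anxa1 and Anxa2) and galectins (Lgals1 and Lgals3). They were taken by symbol from a table of 23224 genes, and all 10 were found. Of these, 8 had enough counts to be tested, whereas S100a8 and S100a9 did not. Messenger RNA was measured by bulk RNA sequencing in dendritic cells (DC) sorted from mouse tumors. MC57-SIY cells, a fibrosarcoma line that carries the model peptide antigen SIY, had grown for 7 days under the skin of the flank of C57BL/6 mice. The 6 libraries fall into 3 groups of 2, each from pooled tumors. CD103+ DC1 from hosts labelled Rag2-/- are replicates 2 and 3, ISG+ DC from hosts labelled Rag2-/- are replicates 2 and 3, and ISG+ DC from hosts labelled WT are replicates 1 and 2. Rag2 is needed to assemble antigen receptors, and without it mature lymphocytes of the T and B lineages do not form. CD103+ DC1 belong to the conventional DC that cross-present antigen. ISG usually stands for interferon-stimulated gene, and the sources used here state neither the sort gate of the ISG+ DC nor the sex and age of the mice. The labels mention 2 independent experiments per sample type.

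S100 proteins are small dimers that change shape when calcium binds and then hold a partner protein; some are also released and act as danger signals. Annexins bind membrane phospholipid when calcium rises, and several of them work in complexes with an S100 dimer. Galectins bind sugars that contain beta-galactoside, inside the cell at damaged vesicles and outside it on the cell surface. In myeloid tissue these genes are known for high levels in monocytes, macrophages and neutrophils, and the S100a8 and S100a9 proteins form calprotectin, a main cytosolic protein of neutrophils.

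Libraries held 6023510 to 15368616 estimated counts, the lowest in CD103+ DC1 replicate 3. That library also stood apart by its Rpph1 share (1.11% against 0.303% to 0.383% of counts), and its Spearman correlation over tested genes with the other libraries was 0.768 to 0.882. The libraries of a group correlated at 0.882 for CD103+ DC1, 0.934 for ISG+ DC labelled Rag2-/- and 0.921 for ISG+ DC labelled WT. CD103+ DC1 replicate 2 was thus nearer to ISG+ DC labelled Rag2-/- replicate 2 (0.9) than to the other CD103+ DC1 library. Markers matched the label of the CD103+ DC1. DC1 markers summed to 2140 and 3160 CPM (normalised read counts, scaled to a common library total) in CD103+ DC1 against 183 to 264 CPM in ISG+ DC. CD11b+ cDC2 markers summed to 107 and 144 CPM against 2150 to 2750 CPM. The 5 interferon-stimulated markers summed to 2120 and 1920 CPM in ISG+ DC labelled Rag2-/- against 964 and 801 CPM in CD103+ DC1. In ISG+ DC labelled WT they summed to 875 and 964 CPM, which was not above CD103+ DC1. Against CD103+ DC1, 3 of the 5 were higher in ISG+ DC labelled Rag2-/-, where 2.83% of all genes tested were higher. In ISG+ DC labelled WT 1 was higher and 1 lower, against 5.52% and 3.62% of all genes tested. Flt3, a growth factor receptor of conventional DC, was at 490 and 330 CPM in CD103+ DC1. It was at 145 and 91.3 CPM in ISG+ DC labelled Rag2-/- and at 15.8 and 32.4 CPM in ISG+ DC labelled WT. Of the 5 markers of DC in general, Zbtb46 and Itgax also lay lower in ISG+ DC labelled WT than in those labelled Rag2-/-. H2-Ab1 and Cd74 did not. Against CD103+ DC1 (165 and 159 CPM) Itgax was not lower. It was at 493 and 526 CPM in ISG+ DC labelled Rag2-/- and at 321 and 337 CPM in those labelled WT. All 5 markers summed to 12900 and 12600 CPM in CD103+ DC1. They summed to 16000 and 17400 CPM in ISG+ DC labelled Rag2-/- and to 16700 and 17200 CPM in those labelled WT. Cd74 (means of 10360 and 10610 CPM in these ISG+ DC groups) and H2-Ab1 (5549 and 5966 CPM) made up most of the sums. The sums therefore do not show the lower levels of Flt3, Zbtb46 and Itgax. Libraries labelled WT had no count of the Rag2 transcript, while those labelled Rag2-/- had 39 and 11 (CD103+ DC1) and 40 and 2 (ISG+ DC). The sources used here do not state which stretch of Rag2 was deleted, so every direction between hosts below rests on the labels.

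The levels of the members differed most in S100a4. S100a4 and S100a6 were higher in ISG+ DC than in CD103+ DC1 within hosts labelled Rag2-/-, by 24-fold and 4.62-fold. The annexin Anxa2, its partner S100a10 and Lgals1 stood at 1.54-fold, 1.56-fold and 1.68-fold of their CD103+ DC1 levels without passing the test, and S100a11 lay the other way. S100a8 had no count in any library.

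**Figure D1:**
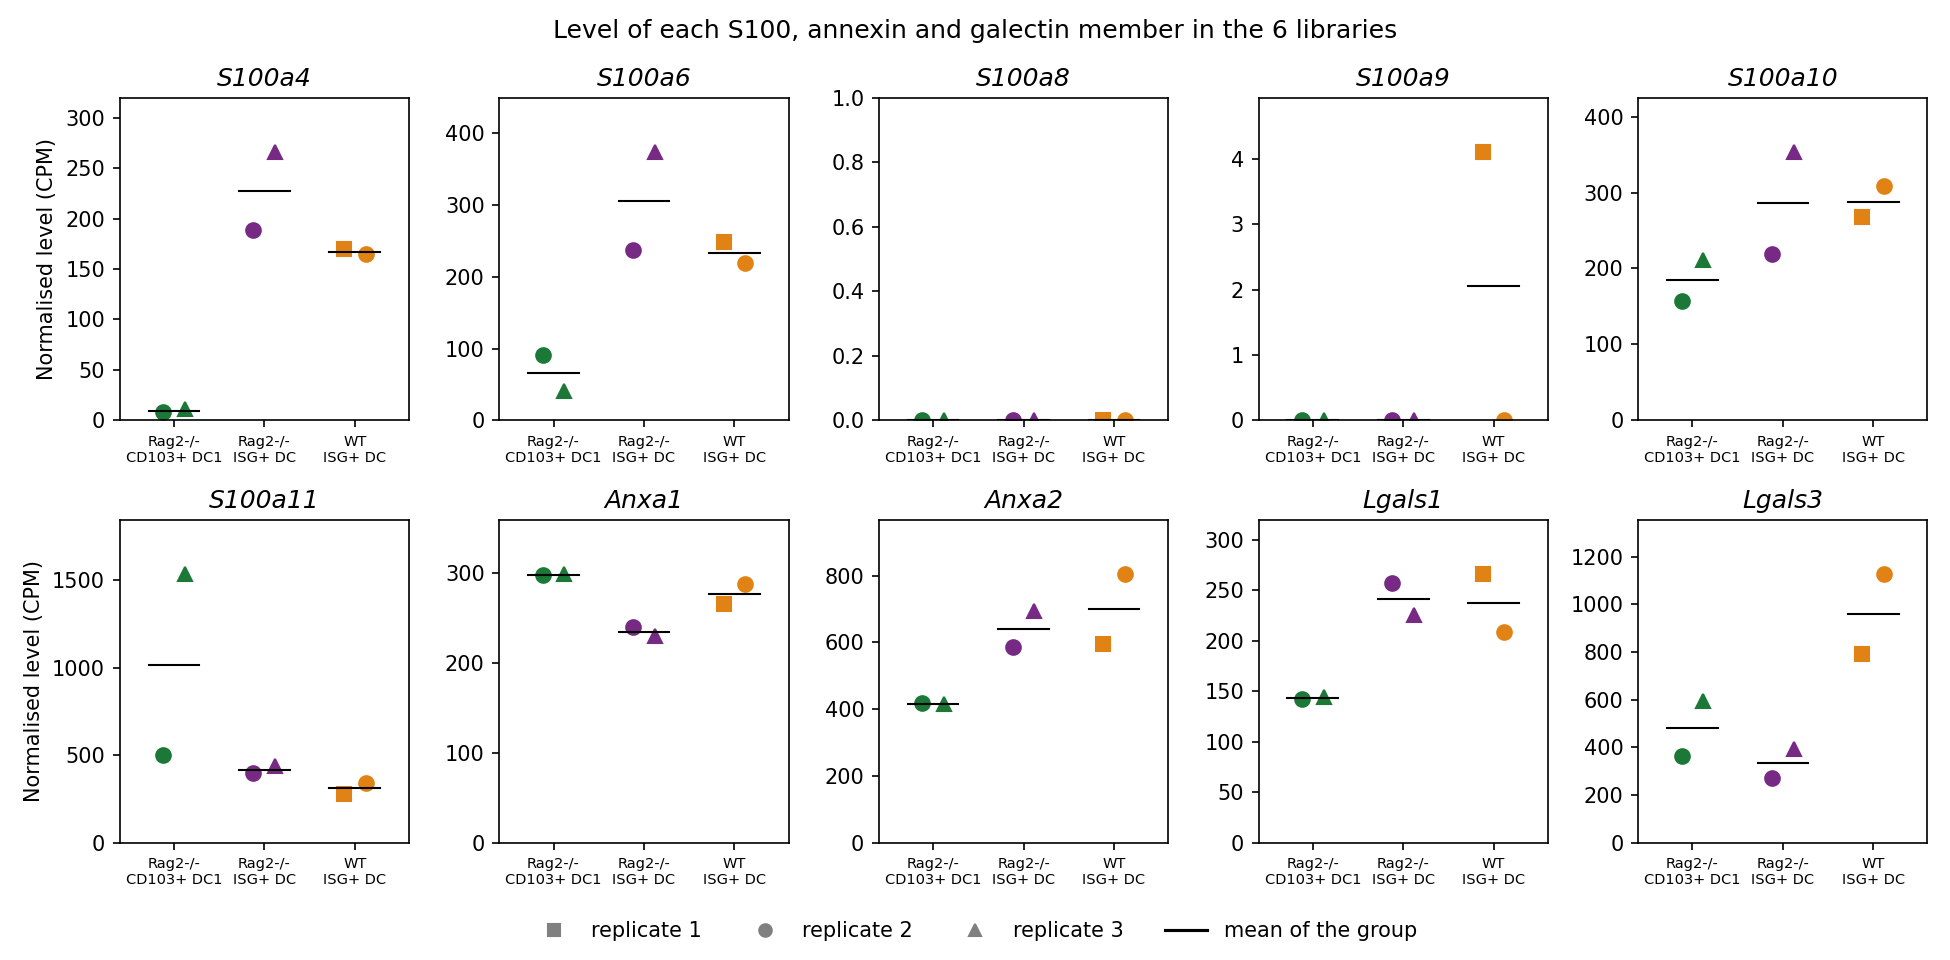
Normalised level (CPM, y axis from 0) of each of the 10 members in the 3 groups (x axis), with 1 point per library, the marker shape for the replicate number and a line for the mean of 2 libraries. S100a4 lies at 8.31 and 10.8 CPM in CD103+ DC1 and between 165 and 266 CPM in the 4 ISG+ DC libraries.

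S100a4, also called metastasin, binds non-muscle myosin and is known from motile cells. It was at 8.31 and 10.8 CPM in CD103+ DC1 (replicates 2 and 3), at 189 and 266 CPM in ISG+ DC labelled Rag2-/- (replicates 2 and 3), and at 170 and 165 CPM in ISG+ DC labelled WT (replicates 1 and 2). All 4 ISG+ DC libraries lay far above both CD103+ DC1 libraries. S100a4 rose by a log2 fold change of 4.58 ± 0.35 (SE, 95% interval 3.80 to 5.36) from CD103+ DC1 to ISG+ DC within hosts labelled Rag2-/- (edgeR adjusted p = 0.000154). With any 1 library of these groups left out the log2 fold change of S100a4 stayed between 4.31 and 4.81.

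S100a6, known as calcyclin, lies next to S100a4 in the S100 cluster on chromosome 3, with S100a5 between them. It was at 90.8 and 41.1 CPM in CD103+ DC1, at 237 and 375 CPM in ISG+ DC labelled Rag2-/-, and at 248 and 220 CPM in ISG+ DC labelled WT. The CD103+ DC1 libraries differed from each other by 2.21-fold but did not reach the range of ISG+ DC. S100a6 rose by 2.21 ± 0.40 (SE) on the log2 scale within hosts labelled Rag2-/- (edgeR adjusted p = 0.011), or by 2.89 without CD103+ DC1 replicate 2 and 1.77 without replicate 3. The neighbours S100a3 and S100a5 had at most 9 and 2 counts in a library and were not tested.

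Of the 8 tested members 2 passed between populations in hosts labelled Rag2-/-, both higher in ISG+ DC. Over all 13223 genes tested 3.69% passed, 2.83% in that direction and 0.862% in the other. At an unadjusted p under 0.05 there were 5 members, against 14.9% of all genes tested. The groups of this comparison did not overlap in 5 members that were higher and 2 that were lower, against 45.9% of all genes tested, 23.9% higher and 22% lower. Over the 8 tested members the median log2 fold change was 0.63, against -0.02 over all genes tested. Markers of several lists moved with these S100 genes. All 5 CD11b+ cDC2 markers were higher in ISG+ DC, with a median log2 fold change of 3.99 against 2.43 for the macrophage markers. Of the 5 interferon-stimulated markers 3 were higher, and all 6 DC1 markers were lower. Macrophage markers were higher in 6 of 8, with summed levels of 1340 and 1940 CPM in ISG+ DC against 329 and 517 CPM. Of the monocyte markers, 2 of 6 were higher and the sums were 1200 and 1370 CPM against 485 and 390 CPM. Leaving out CD103+ DC1 replicate 2 gave 4 monocyte markers, leaving out ISG+ DC replicate 3 gave 1, and leaving out either other library gave 3. None of the 9 fibroblast and matrix markers passed, and their sums overlapped (655 and 1070 against 433 and 1100 CPM). The part of other cell types in the S100 levels was not tested, and in bulk samples more cells of a type and more RNA per cell cannot be told apart.

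S100a10 and Anxa2 code for the partners of a stable complex in which an S100a10 dimer joins 2 Anxa2 chains at the inner cell membrane. This complex is known to hold plasminogen at the cell surface. S100a10 was at 157 and 212 CPM in CD103+ DC1, at 219 and 354 CPM in ISG+ DC labelled Rag2-/-, and at 268 and 308 CPM in ISG+ DC labelled WT. Both ISG+ DC groups lay above CD103+ DC1, although the gap between 212 and 219 CPM was small. The log2 fold change of S100a10 between populations in hosts labelled Rag2-/- was 0.64 ± 0.30 (SE, 95% interval -0.03 to 1.31), which did not pass (edgeR adjusted p = 0.357).

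Anxa2 was at 418 and 415 CPM in CD103+ DC1, at 586 and 693 CPM in ISG+ DC labelled Rag2-/-, and at 595 and 805 CPM in ISG+ DC labelled WT. The CD103+ DC1 libraries were nearly equal and the lowest of the 6. Its log2 fold change was 0.62 ± 0.24 (SE, 95% interval 0.08 to 1.16), which did not pass after adjustment over all genes (edgeR adjusted p = 0.251). Among the 8 tested members, S100a10 and Anxa2 had the most alike profiles over the 6 libraries. Their profiles of log2(CPM + 1), each centred on its mean, differed by 0.2 in root mean square, against 0.27 for Anxa2 and Lgals1 and 2.62 for S100a4 and S100a11. This measure is small for any genes that vary little. All pairs among S100a10, Anxa2, Lgals1 and Anxa1 lay between 0.2 and 0.48, so the likeness was not particular to the partners. The count of Anxa2 was 1.96 to 2.67 times that of S100a10 in every library. Gene length differs between them, so this ratio is followed across libraries and is not a ratio of molecules.

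**Figure D2:**
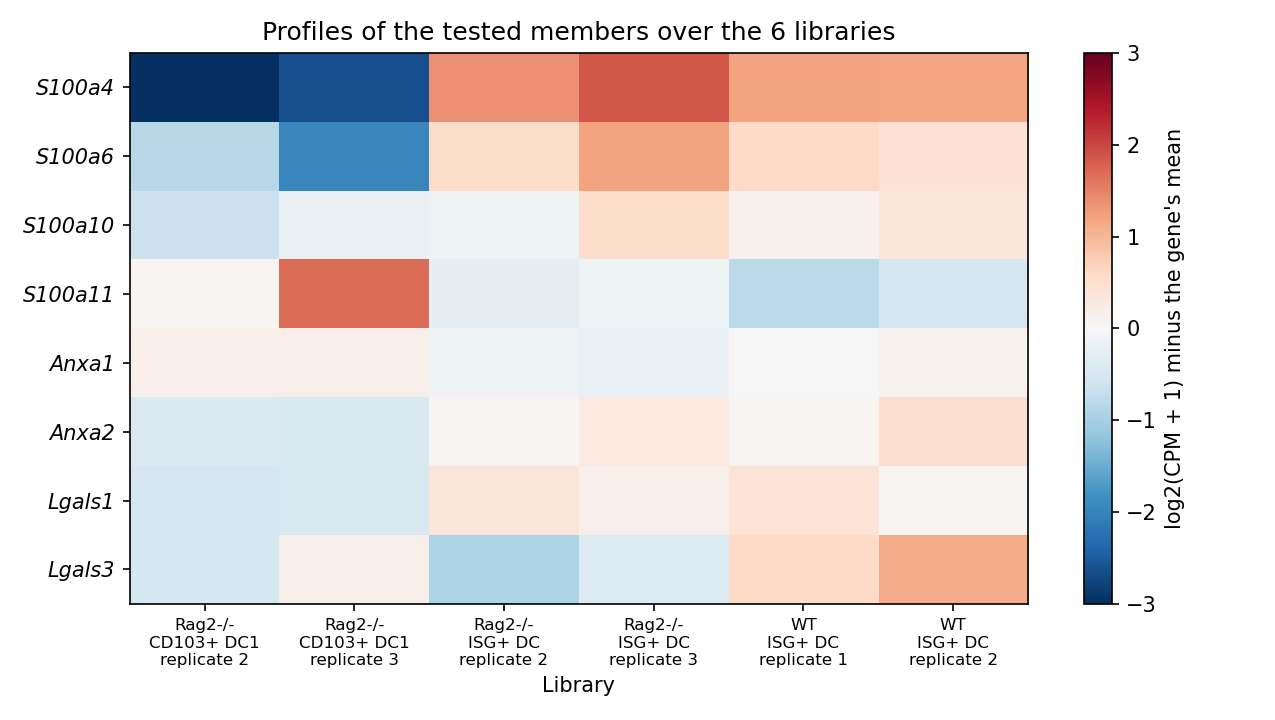
Profiles of the 8 tested members (rows) over the 6 libraries (columns), coloured by log2(CPM + 1) minus the mean of the gene, red above and blue below. S100a4 has the widest range, S100a10 and Anxa2 are alike (root mean square difference 0.2), and S100a11 is highest in CD103+ DC1 replicate 3.

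S100a11, known as calgizzarin, binds Anxa1 in a complex of the same kind. It was at 499 and 1535 CPM in CD103+ DC1, at 395 and 439 CPM in ISG+ DC labelled Rag2-/-, and at 276 and 342 CPM in ISG+ DC labelled WT. Every ISG+ DC library lay below both CD103+ DC1 libraries, yet the 3.08-fold gap within CD103+ DC1 was wider than that between 499 and 439 CPM. The log2 fold change of S100a11 in hosts labelled Rag2-/- was -1.29 ± 0.42 (SE, 95% interval -2.22 to -0.35), which did not pass (edgeR adjusted p = 0.159) but did by DESeq2 (adjusted p = 0.0321) and by edgeR without a filter on low counts (adjusted p = 0.000199). This value rested on CD103+ DC1 replicate 3: without it the log2 fold change was -0.24, and without replicate 2 it was -1.89 and passed (edgeR adjusted p = 1.46e-06). A processed pseudogene of S100a11 and 2 of Lgals1 are annotated in GENCODE, and reads from such copies could be counted for these genes.

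Anxa1, which limits inflammation through formyl peptide receptors, varied little between libraries. It was at 298 and 299 CPM in CD103+ DC1, at 240 and 230 CPM in ISG+ DC labelled Rag2-/-, and at 266 and 289 CPM in ISG+ DC labelled WT. ISG+ DC labelled Rag2-/- lay below the other groups, which did not overlap with them. Its log2 fold change between populations was -0.35 ± 0.24 (SE, 95% interval -0.87 to 0.18), which did not pass (edgeR adjusted p = 0.568). The count of Anxa2 was 1.38 and 1.41 times that of Anxa1 in the CD103+ DC1 libraries. In the 4 ISG+ DC libraries it was 2.24 to 3.02 times. Both genes enter this ratio, with log2 fold changes in hosts labelled Rag2-/- of 0.62 for Anxa2 and -0.35 for Anxa1. Neither gene passed, and the ratio was not tested.

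Lgals1, a dimeric galectin known to trigger death of activated T cells, was at 143 and 144 CPM in CD103+ DC1, at 257 and 225 CPM in ISG+ DC labelled Rag2-/-, and at 266 and 209 CPM in ISG+ DC labelled WT. The 4 ISG+ DC libraries all lay above CD103+ DC1. The log2 fold change between populations was 0.75 ± 0.26 (SE, 95% interval 0.17 to 1.33), which did not pass after adjustment (edgeR adjusted p = 0.185).

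Lgals3, the galectin first known as the macrophage antigen Mac-2, had a different order from the other members. It was at 362 and 595 CPM in CD103+ DC1, at 273 and 394 CPM in ISG+ DC labelled Rag2-/-, and at 791 and 1127 CPM in ISG+ DC labelled WT. Both libraries labelled WT lay above the other 4, while the groups from hosts labelled Rag2-/- overlapped. Between populations in hosts labelled Rag2-/- the log2 fold change of Lgals3 was -0.52 ± 0.31 (SE, edgeR adjusted p = 0.493), or -0.84 without CD103+ DC1 replicate 2, where it passed (edgeR adjusted p = 0.0184), and -0.10 without CD103+ DC1 replicate 3 (edgeR adjusted p = 0.977). It was -0.28 without ISG+ DC replicate 2 and -0.81 without ISG+ DC replicate 3, and passed in neither.

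S100a8 had 0 counts in all 6 libraries. That allows a level of up to 0.144 CPM over CD103+ DC1, 0.101 CPM over ISG+ DC labelled Rag2-/- and 0.141 CPM over ISG+ DC labelled WT, taking 3 counts over a group as the limit and covering counting error alone. S100a9 had 46 counts (4.11 CPM) in ISG+ DC labelled WT replicate 1 and 0 counts in the other 5 libraries. Of the neutrophil granule genes, Elane, Camp and Ngp had no count anywhere and Mpo reached 1.4 CPM at most, while Mmp8 was at 5.72 and 18.3 CPM in ISG+ DC labelled WT. Csf3r, the receptor for G-CSF on the same neutrophil list, stood at 126 and 134 CPM in ISG+ DC labelled WT. In ISG+ DC labelled Rag2-/- it stood at 12.3 and 22.5 CPM, so the list was not uniformly low. Cxcr2, also on that list, lay the other way between hosts. It was at 8.58 and 13 CPM in ISG+ DC labelled WT against 16 and 21.5 CPM in those labelled Rag2-/-. In CD103+ DC1 it was at 4.39 and 29.6 CPM. The S100a8 transcript was not detectable at this depth.

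The comparison of ISG+ DC between hosts asked what differs where mature T and B cells are present. None of the 8 tested members passed by edgeR's quasi-likelihood test, in which 0.552% of all genes tested passed. At an unadjusted p under 0.05 there was 1 member, Lgals3, against 9.88% of all genes tested. DESeq2 called that same member. The groups did not overlap in 2 members that were higher (Anxa1 and Lgals3) and 2 that were lower (S100a4 and S100a11), against 44.5% of all genes tested, 21.4% higher and 23.1% lower. Lgals3 was 2.88-fold higher in ISG+ DC labelled WT, a log2 fold change of 1.53 ± 0.32 (SE, 95% interval 0.82 to 2.23), just outside the threshold (edgeR adjusted p = 0.0644). DESeq2 gave an adjusted p of 0.000581, edgeR without a filter on low counts 1.21e-05, a fit of the 4 libraries alone 0.00744, and the fit without WT replicate 1 0.0231. With 1 library left out, the log2 fold change ran from 1.24 (without WT replicate 2) to 1.81 (without Rag2-/- replicate 3), with edgeR adjusted p from 0.0231 to 0.382.

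**Figure D3:**
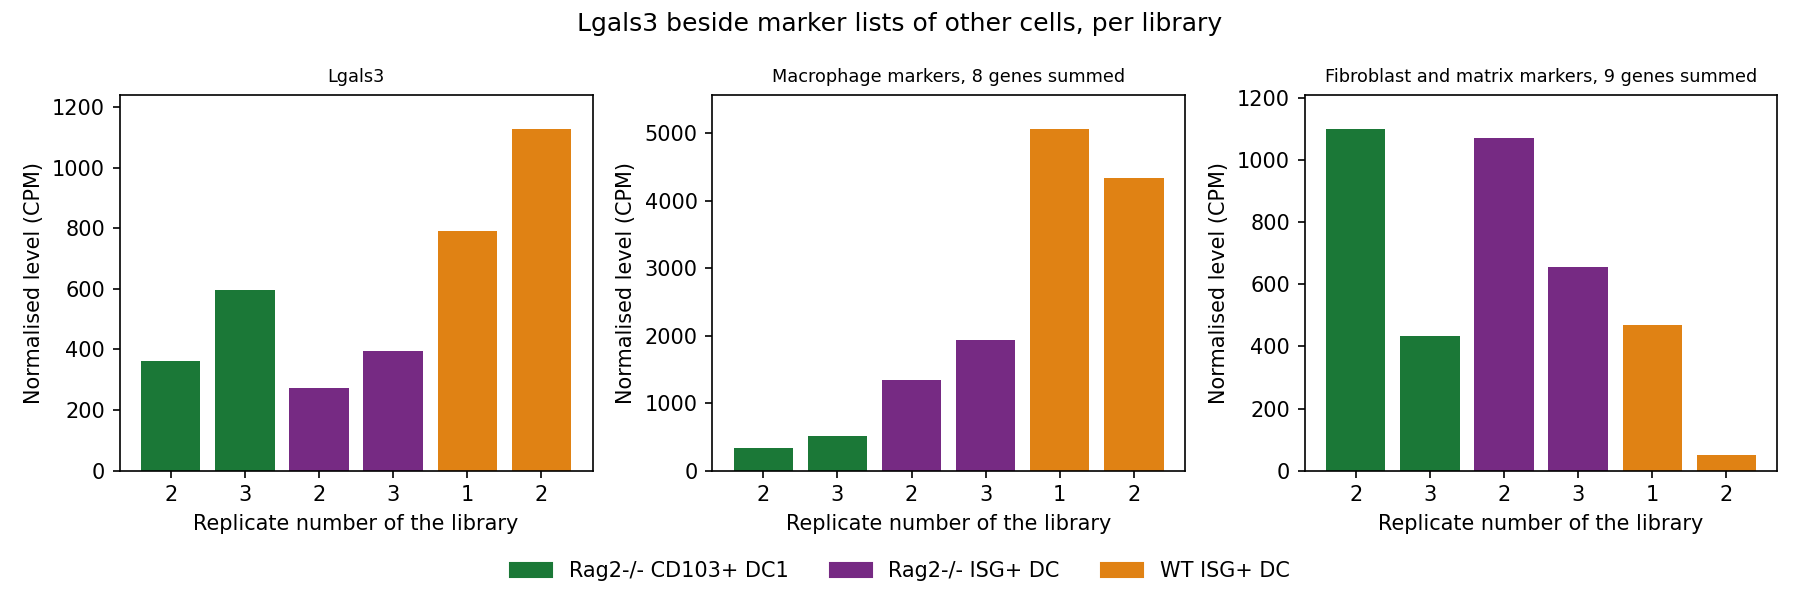
Normalised level (CPM, y axis from 0) of Lgals3, of 8 macrophage markers summed and of 9 fibroblast and matrix markers summed, with 1 bar per library, the colour for the group and the replicate number on the x axis. Lgals3 and the macrophage sum are both highest in the 2 libraries labelled WT, whereas the fibroblast sum is lowest there in replicate 2.

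Macrophage markers stood beside Lgals3 in this comparison. Their summed level was 4340 and 5060 CPM in ISG+ DC labelled WT against 1340 and 1940 CPM in ISG+ DC labelled Rag2-/-, and 1 of 8, Apoe, passed (none without Rag2-/- ISG+ DC replicate 2, and 2 without WT replicate 1). Apoe was at 2032 and 1656 CPM in ISG+ DC labelled WT against 202.9 and 280.5 CPM in those labelled Rag2-/-. The groups did not overlap in 7 markers that were higher in ISG+ DC labelled WT and in 1, Fcgr1, that was lower. Over all genes tested these shares were 21.4% and 23.1%. In CD103+ DC1 the macrophage sum was lower still, at 329 and 517 CPM, while Lgals3 was at 362 and 595 CPM. The part of macrophage-like cells in the Lgals3 level was not tested. The fibroblast sum ran from 51.4 to 469 CPM in libraries labelled WT against 655 and 1070 CPM.

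The other tested members had intervals that included no change between hosts. The log2 fold changes, WT minus Rag2-/-, were -0.44 for S100a4 (95% interval -1.10 to 0.22) and -0.39 for S100a6 (-1.22 to 0.45). They were -0.43 for S100a11 (-1.36 to 0.49), 0.24 for Anxa1 (-0.29 to 0.76), 0.13 for Anxa2 (-0.40 to 0.67), 0.01 for S100a10 (-0.66 to 0.67) and -0.02 for Lgals1 (-0.60 to 0.55). S100a4, at 165 and 170 CPM in libraries labelled WT and 189 and 266 CPM in those labelled Rag2-/-, did not overlap, but the difference did not pass (edgeR adjusted p = 0.715). The widest of these intervals was that of S100a11, so a moderate difference between hosts is not shown to be absent.

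**Figure D4:**
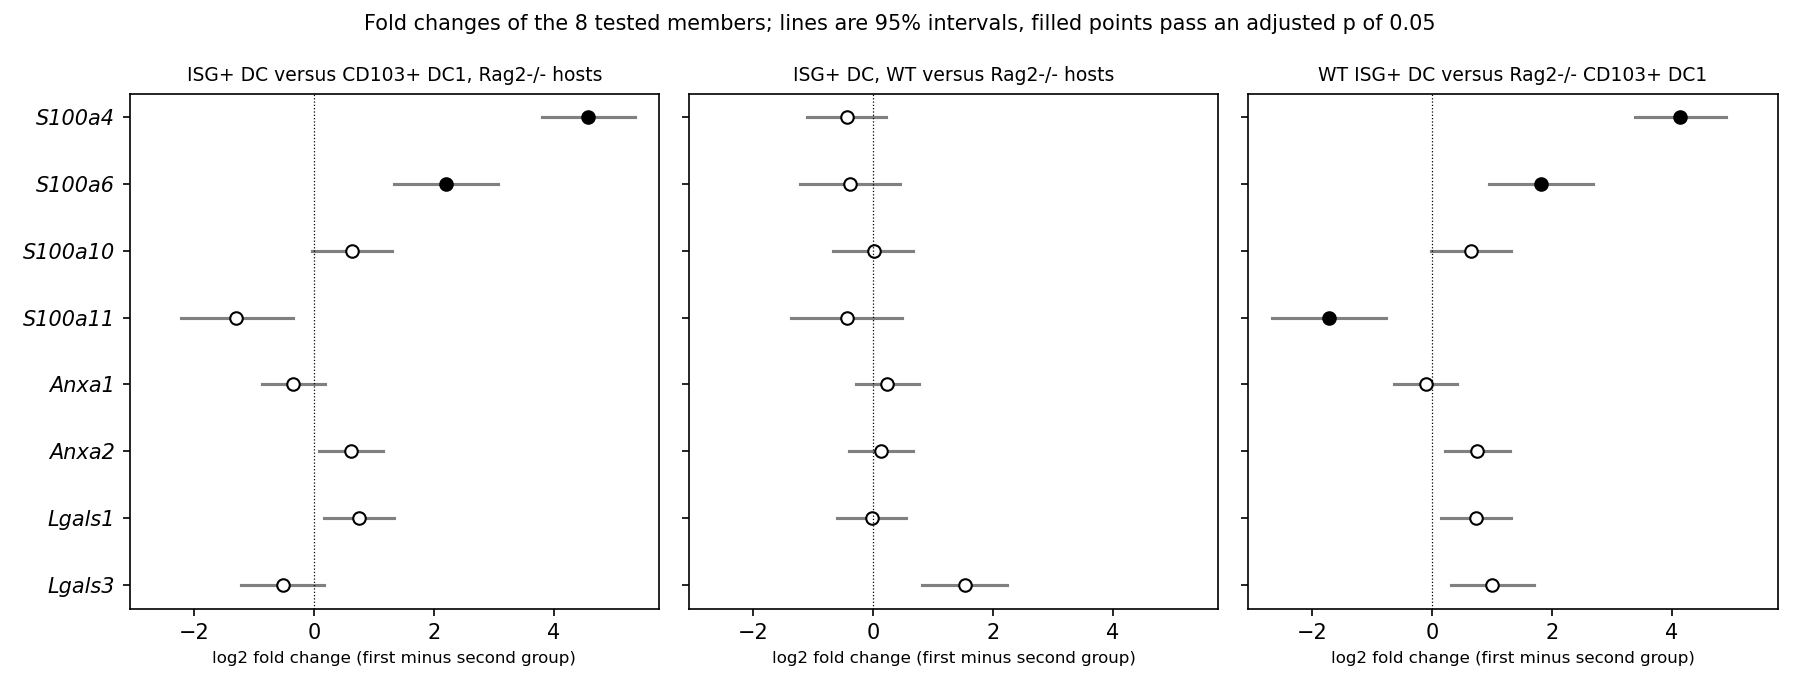
Log2 fold changes of the 8 tested members (rows) in 3 comparisons (panels), first group minus second, with lines for 95% intervals and filled points where the adjusted p is under 0.05. S100a4 (4.58) and S100a6 (2.21) pass in the first panel, none passes in the second, and S100a11 (-1.72) passes in the third beside them.

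For the order of the 3 groups, ISG+ DC labelled WT were also set against CD103+ DC1 labelled Rag2-/-, which differ in host and population together. The comparison shares libraries with both of those above, and 9.14% of all genes tested passed in it, 5.52% higher and 3.62% lower in ISG+ DC. Of the 8 tested members 3 passed, 2 higher and 1 lower, and 6 were at an unadjusted p under 0.05, against 21.9% of all genes tested. S100a4 (17.6-fold) and S100a6 (3.53-fold) were higher there, with edgeR adjusted p = 0.000134 and 0.0157. S100a11 was 3.29-fold lower, a log2 fold change of -1.72 ± 0.43 (SE, edgeR adjusted p = 0.0315), or -0.68 without CD103+ DC1 replicate 3, and its call was lost without WT replicate 1 (edgeR adjusted p = 0.074). In a fit of these 4 libraries alone S100a6 and S100a11 lost their calls (edgeR adjusted p = 0.0552 and 0.112). For S100a4 and S100a6 the order was thus ISG+ DC labelled Rag2-/-, ISG+ DC labelled WT and CD103+ DC1, where the difference between both ISG+ DC groups did not pass and CD103+ DC1 were lower. The ISG+ DC groups did not overlap in S100a4 and overlapped in S100a6. For S100a10, Anxa1, Anxa2, Lgals1 and Lgals3 no neighbours in the order passed. For S100a11 the neighbours did not pass, but its highest and lowest groups did. Lgals3 stood at 2-fold in ISG+ DC labelled WT against CD103+ DC1 (edgeR adjusted p = 0.0804), and passed without CD103+ DC1 replicate 3 at a log2 fold change of 1.42. DESeq2 called Lgals3 and Anxa2 there (adjusted p = 0.0331 and 0.0296), and edgeR without a filter called Lgals3 (adjusted p = 0.00469). Without that library S100a10 (0.89) and Anxa2 (0.76) passed as well, and Anxa2 (0.74) also passed without CD103+ DC1 replicate 2.

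Most other genes of the 3 families were too low to test or did not pass. Of 10 further S100 genes 3 were tested and none passed in any of the 3 comparisons. S100a13 was the highest of them, with 17.5 and 57.4 CPM in CD103+ DC1, 33.2 and 25.1 CPM in ISG+ DC labelled Rag2-/-, and 37.1 and 34.8 CPM in ISG+ DC labelled WT. S100a7a, S100a14 and S100z had no count in any library.

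Of 10 further annexin genes 7 were tested. Between populations in hosts labelled Rag2-/- 2 passed, in opposite directions, against 3.69% of all genes tested. Anxa4, a membrane-binding annexin, was at 52 and 52.8 CPM in CD103+ DC1 and at 116 and 202 CPM in ISG+ DC. It rose 3.03-fold (edgeR adjusted p = 0.0226), with the call lost without ISG+ DC replicate 3 at a log2 fold change of 1.15. Anxa6, an annexin with a doubled core, was at 466 and 406 CPM in CD103+ DC1 and at 188 and 187 CPM in ISG+ DC, with no overlap. It fell by 1.22 ± 0.25 (SE) on the log2 scale (edgeR adjusted p = 0.0238), and did not pass when ISG+ DC replicate 2 or replicate 3 was left out, at -1.22 and -1.21. Between hosts none of the 7 passed.

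Of 9 further galectin genes 4 were tested and none passed. Between populations in hosts labelled Rag2-/- 2 of the 4, Lgals8 and Lgals9, were at an unadjusted p under 0.05 by edgeR, against 14.9% of all genes tested. Lgals8, which marks damaged vesicles for autophagy, was at 8.38 and 25 CPM in CD103+ DC1 against 76 and 75 CPM in ISG+ DC labelled Rag2-/- (log2 fold change 2.19 ± 0.55, edgeR adjusted p = 0.0586). Without CD103+ DC1 replicate 2 Lgals8 and Lgals9 passed at log2 fold changes of 1.59 and 1.32, and without replicate 3 Lgals8 passed at 3.19. Lgals9, a ligand of the receptor Tim-3, was at 117 and 71.6 CPM in CD103+ DC1, at 177 and 182 CPM in ISG+ DC labelled Rag2-/-, and at 84.4 and 114 CPM in ISG+ DC labelled WT. Lgals9 and Lgals3 lay on opposite sides between hosts, at log2 fold changes of -0.85 (edgeR adjusted p = 0.384) and 1.53.

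**Figure D5:**
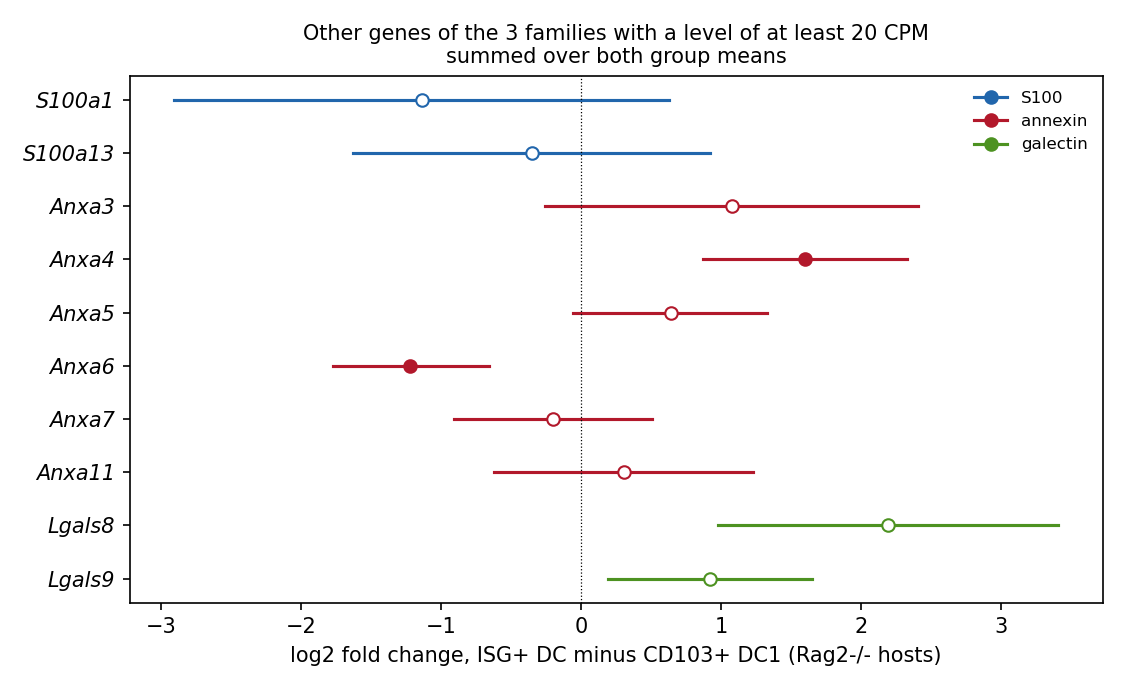
Log2 fold changes between ISG+ DC and CD103+ DC1 of hosts labelled Rag2-/- (x axis) for the 10 other genes of the families whose group means sum to at least 20 CPM, with lines for 95% intervals and filled points where the adjusted p is under 0.05. Anxa4 (1.60) and Anxa6 (-1.22) pass, on opposite sides of 0.

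Receptors and binding partners of these proteins were listed as 26 genes, of which 24 were tested. Between populations in hosts labelled Rag2-/- 6 were higher, 1 was lower and 17 did not pass, with a median log2 fold change of 0.92 against -0.02 over all genes. Over all genes tested 2.83% were higher and 0.862% lower. Without ISG+ DC replicate 3 the counts were 2 and 0, and without either CD103+ DC1 library 9 were higher. Emb, the cell surface glycoprotein embigin and a relative of basigin, was at 11.8 and 34.6 CPM in CD103+ DC1 and at 170 and 170 CPM in ISG+ DC. Emb rose 7.43-fold (edgeR adjusted p = 0.00515), or by a log2 fold change of 2.29 without CD103+ DC1 replicate 2 and 3.87 without replicate 3.

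Lgals3bp, a secreted glycoprotein that binds Lgals3, was at 226 and 148 CPM in CD103+ DC1 and at 507 and 580 CPM in ISG+ DC labelled Rag2-/-. It rose 2.9-fold (edgeR adjusted p = 0.0105), and the call was lost without ISG+ DC replicate 3 at a log2 fold change of 1.44. Lamp1, a lysosomal membrane protein whose sugars bind galectins, rose 2.74-fold (edgeR adjusted p = 0.0106), and its call was likewise lost without that library, at 1.34. Havcr2, which codes for Tim-3, fell by 2.19 ± 0.39 (SE) on the log2 scale, from 118 and 127 CPM in CD103+ DC1 to 33.5 and 20.1 CPM in ISG+ DC labelled Rag2-/- (edgeR adjusted p = 0.011). The fall of Havcr2 did not pass once ISG+ DC replicate 3 was left out, at -1.87. Ahnak, the giant scaffold that the S100a10 and Anxa2 complex binds, was at 4629 and 4662 CPM in CD103+ DC1 against 5036 and 5662 CPM in ISG+ DC and did not pass (edgeR adjusted p = 0.714). Between hosts none of the 24 partners passed by edgeR's quasi-likelihood test, against 7 at an unadjusted p under 0.05, where the shares over all genes tested were 0.552% and 9.88%. With 1 library left out, 0 or 1 partner passed.

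The genes whose profiles over the 6 libraries lay nearest to those of single members were sought among 8561 other genes whose mean reached 10 CPM. For S100a4 they were Sulf2, Arhgap24 and Emr4, at root mean square differences of 0.16, 0.17 and 0.29 in centred log2(CPM + 1). For example, Sulf2 was at 7.85 and 9.08 CPM in CD103+ DC1 and at 132 to 298 CPM in ISG+ DC. For S100a10 they included Akap10 (0.09) and Ugt1a7c (0.13), both nearer than Anxa2 at 0.2. For Lgals3 they were 0610012G03Rik (0.18), Slc31a2 (0.19) and Zfp395 (0.24), of which Slc31a2 was at 43.3 and 48.9 CPM in libraries labelled WT and at 14.7 to 27.7 CPM in the other 4. S100a8 was not tested and has no neighbours.

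The promoters of the genes that moved or stood apart are shown for comparison of S100a4 and S100a6, which rose together, with S100a11 and Lgals3, which did not. They come from RefSeq on GRCm38.p6 (8 of the 10 members matched), a later build than the mm9 of the counts, and run from 250 bases before to 50 bases after the start site. S100a4 lies at chr3:90603520-90603819 (plus strand), S100a6 at chr3:90612644-90612943 (plus strand), S100a11 at chr3:93520246-93520545 (plus strand) and Lgals3 at chr14:47373610-47373909 (plus strand). Capitals mark matches, on either strand, to GAGGAAG (PU.1), TGANTCA (AP-1), TTGCNNAA (C/EBP) or the interferon-stimulated response element.
S100a4: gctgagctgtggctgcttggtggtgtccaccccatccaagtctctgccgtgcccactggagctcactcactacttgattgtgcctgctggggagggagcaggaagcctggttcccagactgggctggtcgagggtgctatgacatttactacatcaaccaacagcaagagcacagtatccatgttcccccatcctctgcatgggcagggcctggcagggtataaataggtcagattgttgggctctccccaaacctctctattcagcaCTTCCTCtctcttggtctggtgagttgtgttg
S100a6: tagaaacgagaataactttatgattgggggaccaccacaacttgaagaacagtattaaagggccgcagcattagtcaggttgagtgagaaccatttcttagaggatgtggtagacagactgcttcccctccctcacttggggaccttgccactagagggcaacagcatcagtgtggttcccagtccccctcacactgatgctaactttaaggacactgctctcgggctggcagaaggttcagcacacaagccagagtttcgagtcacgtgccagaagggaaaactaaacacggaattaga
S100a11: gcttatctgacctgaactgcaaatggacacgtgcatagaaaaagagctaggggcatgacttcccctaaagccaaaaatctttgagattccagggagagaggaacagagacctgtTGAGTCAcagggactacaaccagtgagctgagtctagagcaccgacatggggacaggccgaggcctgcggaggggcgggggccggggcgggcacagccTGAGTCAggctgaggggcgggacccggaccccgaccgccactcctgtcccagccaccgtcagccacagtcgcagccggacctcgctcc
Lgals3: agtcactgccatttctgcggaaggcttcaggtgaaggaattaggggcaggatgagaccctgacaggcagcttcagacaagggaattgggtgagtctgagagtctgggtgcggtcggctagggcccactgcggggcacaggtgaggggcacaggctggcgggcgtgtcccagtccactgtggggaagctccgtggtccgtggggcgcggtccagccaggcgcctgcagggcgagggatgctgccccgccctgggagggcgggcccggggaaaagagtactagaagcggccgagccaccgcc

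S100a4 held 1 match to the PU.1 motif, at bases 19 to 25 after the start site, and S100a6 held none of the 4 motifs. S100a11 held 2 matches to the AP-1 motif, ending 130 and 32 bases before the start site, and Lgals3 held none. Over the 8 member promoters PU.1, AP-1 and C/EBP motifs were each found in 2, and the interferon-stimulated response element in none. The same motifs were found in 13.6%, 7.81%, 10.8% and 3.44% of 32841 promoters of the same length, in the order PU.1, AP-1, C/EBP and interferon-stimulated response element. A match is a run of letters and not a measured binding site.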

How the data were processed

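Per the labels' protocols, libraries came from a stranded low-input total RNA kit (the molecule field names polyA RNA; this was not reconciled). The authors deposited a table of estimated counts from RSEM, 1 row per gene symbol and 1 column per library, without normalization; 16.1% of values are not whole. Per the submitters' processing notes, Bowtie 1.2.3, RSEM 1.3.1 and build mm9 were used; the sources used here name no annotation, strand setting or read filter. RSEM shares ambiguous reads between genes by a model, so near-identical copies and overlapping or antisense genes are uncertain.

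After rounding, edgeR 4.0.16 (R 4.3.3) was used: filterByExpr by group (13223 genes kept), TMM, 1 quasi-likelihood fit over 6 libraries, two-sided tests, Benjamini-Hochberg adjustment over all genes tested, threshold 0.05. CPM use TMM-scaled totals of the tested genes. DESeq2 1.42.0, other filters and scaling, smaller fits and leaving out each library of the groups compared were alternatives. The fit has 3 residual degrees of freedom. P-values measure spread between libraries, which may be technical. The procedure was tested on simulated counts.

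The members and lists were chosen with earlier results of these data known. Named are all members, up to 4 passing genes per other list and comparison with the smallest p, the first markers of each list and the 3 nearest profiles of S100a4, S100a8, S100a10 and Lgals3; 1 gene under this rule is not reported here. Other genes named (S100a3, S100a5, S100a13, Lgals8, Lgals9, Ahnak, Csf3r, Cxcr2, Mmp8, Apoe, Fcgr1, Cd74, Rpph1) were chosen after their values were seen. Of 133 list entries 131 were found.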

Additional observations from a re-analysis of the deposited data

How the results depend on the processing

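Of 240 alternative values of single members, 213 kept their direction and their side of the threshold, 17 passed where the reported fit did not, 4 no longer passed and 6 changed sign. S100a4 and S100a6 passed between populations under every alternative run. The 6 changes of sign were between hosts, with no call: S100a11 at 0.11 with the replicate block, S100a10 at -0.30 and -0.10, Lgals1 at 0.08 and 0.14, and Anxa2 at -0.11. With 1 library left out the values ran from -0.30 to 0.39 for S100a10, -0.21 to 0.14 for Lgals1 and -0.11 to 0.33 for Anxa2.

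Between populations in hosts labelled Rag2-/-, 2 members and 488 genes passed. The number of genes was 1078 by DESeq2, 1087 without a filter on low counts and 297 in a fit of the 4 libraries, and the cause was not tested. With 1 library left out, 2 to 4 members and 278 to 2068 genes passed. Between hosts, 0 members and 73 genes passed. DESeq2 gave 1 and 545, no filter 1 and 555, and the 4 libraries 1 and 444, and leaving out 1 library gave 0 to 1 and 27 to 198. For ISG+ DC labelled WT against CD103+ DC1, 3 members and 1209 genes passed. DESeq2 gave 5 and 2082, no filter 4 and 1890, the 4 libraries 1 and 683, and leaving out 1 library 2 to 6 and 837 to 2754.

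With the replicate number as a block, 2 members and 715 genes passed between populations, and S100a4 and S100a6 were at log2 fold changes of 4.56 and 2.28. Deviations from the group means correlated at -0.00239 over all genes tested for replicate 2 of both groups labelled Rag2-/-. Taken over all genes, that value cannot exclude a shared experiment that moved only some of them. The labels do not say what the numbers mark, so they are not taken to pair samples. The groups of the other comparisons share replicate 2 alone, so there the block, chosen after seeing the data, leaves WT replicate 2 to carry its group. Between hosts 1 member (Lgals3, 2.09, edgeR adjusted p = 0.00339) and 258 genes passed with it. Between ISG+ DC labelled WT and CD103+ DC1, 3 members and 943 genes passed, with Lgals3 (1.59) called and S100a11 (-0.96) not. Depth limits S100a8 and S100a9, and 2 libraries per group limit every interval.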

Other observations

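Partners of these proteins were also compared between ISG+ DC labelled WT and CD103+ DC1, where host and population differ together. Of 24 tested, 12 were higher and none was lower, against 5.52% and 3.62% of all genes tested. With 1 library left out, 8 to 13 were higher, the lowest without WT replicate 1, and 1 was lower without CD103+ DC1 replicate 2. The 24 partners had a median log2 fold change of 0.96, beside 0.92 for ISG+ DC labelled Rag2-/- against the same CD103+ DC1 libraries. Whether the partners differ between these comparisons was not tested. Emb was at 282 and 272 CPM in ISG+ DC labelled WT, 12.1-fold above CD103+ DC1 (edgeR adjusted p = 0.000947), or at a log2 fold change of 2.99 without CD103+ DC1 replicate 2 and 4.57 without replicate 3. Lamp1, at 603 and 662 CPM, was 5.58-fold higher (edgeR adjusted p = 0.000352). Mertk, an uptake receptor of macrophages that is also on the macrophage marker list, was at 86.2 and 42.1 CPM against 5.19 and 2.91 CPM in CD103+ DC1 (edgeR adjusted p = 0.00381). Lamp2, a lysosomal partner of Lamp1, was at 283 and 300.2 CPM against 95.5 and 107 CPM (edgeR adjusted p = 0.00432).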
